A study of Oryza sativa Japonica Group with 15 samples.

Results

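The 4 shoot cells and the 4 eggs of a rice single-cell Hi-C series were set against each other, 8 of its 15 cells, taken by their sample labels. Single-cell Hi-C joins pieces of DNA that lay close together in 1 nucleus and reads both ends of each joined pair. All cells came from the japonica cultivar Dongjin, with no mutation or treatment named. The shoot cells were taken from seedlings 12 days after germination, with no tissue layer or cell type given, and the eggs from florets that had not been pollinated. Sperm and unicellular zygotes make up the remaining 7 cells.

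An egg is a haploid gamete that waits for fertilisation, whereas a shoot cell is a diploid somatic cell. In interphase nuclei each chromosome tends to keep a territory of its own, so contacts within a chromosome (cis) become rarer with distance and contacts between chromosomes (trans) join neighbouring territories. In many plants the centromeres gather at one pole of the nucleus and the chromosome ends at the other, the Rabl arrangement, which brings centromeres of different chromosomes together and likewise their ends.

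A contact was 1 distinct pair of DpnII restriction fragments in a cell, and a far contact was a trans one or a cis one of 20 kb or longer. Shoot cells 1 to 4 held 3631, 1392, 3110 and 815 contacts, of which 448, 323, 431 and 243 were far. Eggs 1 to 4 held 2035, 1315, 4576 and 1381 contacts, of which 543, 528, 558 and 401 were far. The groups overlapped in contacts, and the far contacts of shoot cell 1 (448) outnumbered those of egg 4 (401). The labels do not say which cells came from separate plants. Either group therefore stands for 1 sample, and shoot cells and eggs were compared without a test. Cell type, copy number of the chromosomes, isolation and library cannot be told apart in this design. The intervals given are exact 95% intervals (Clopper-Pearson for shares, Poisson for counts) and cover counting error only. The files hold no marker genes, so the labelled cell types could not be checked.

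Shoot cell 4 stood apart from the other cells. In its file 73.7% of the read pairs carried the same number as line group and as read pair, against 1 read pair in egg 1 and none in the other 6 cells. These 1647 read pairs gave 651 contacts, with 36.6% of their ends on chromosome 2 and 24.0% on chromosome 7. The other 589 read pairs gave 177 contacts, with 3.67% and 2.82% of their ends on the same chromosomes. Only 13 contacts occurred in both kinds of line. Shoot cells 3 and 4 shared 60 contacts, 1.93% of those of cell 3 and 7.36% of those of cell 4, against 5 to 23 for the other pairs of shoot cells. Only 2 of the 60 were far contacts, within the 2 to 9 of the other pairs of shoot cells. Eggs 1 and 4 shared 147 contacts, 36 of them far, and 5 identical read pairs. Egg 2 shared 59 contacts with egg 1 and 69 with egg 4, and no identical read pairs. Sharing was not limited to cells of 1 group, since a shoot cell and an egg shared 5 to 52 contacts, 0 to 25 of them far. The highest of these were shoot cell 2 and egg 4, which also had 1 identical read pair. The design text counts 2 shoot cells where 4 are listed. For some measures, means over shoot cells are therefore also given without cell 4, or without cells 3 and 4. The other means include all shoot cells.

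A small set of places that far contacts kept returning to differed between shoot cells and 3 of the 4 eggs. The sequence makes 37272 bins of 10 kb, and 95 of them, here called recurrent, were met by far contacts of 5 or more among all 15 cells. They took part in 14.1%, 31.0%, 3.71% and 16.9% of the far contacts of shoot cells 1 to 4, against 54.3%, 50.8%, 3.23% and 76.1% of those of eggs 1 to 4. Eggs 1, 2 and 4 lay above all 4 shoot cells, whereas egg 3 lay below all of them. The means were 16.4% ± 11.2 in shoot cells and 46.1% ± 30.7 in eggs (SD, n = 4 cells each). These bins were chosen partly on the cells described here. A second set of 73 bins, met by far contacts of 3 or more among the 7 sperm and zygotes, was chosen without them, and 67 of the 73 were among the 95. At those bins lay 12.3%, 28.8%, 2.32% and 15.2% of far contacts in shoot cells, against 51.0%, 45.5%, 3.23% and 71.8% in eggs. The order of the cells was kept except that shoot cell 3 was then the lowest of all.

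**Figure D1:**
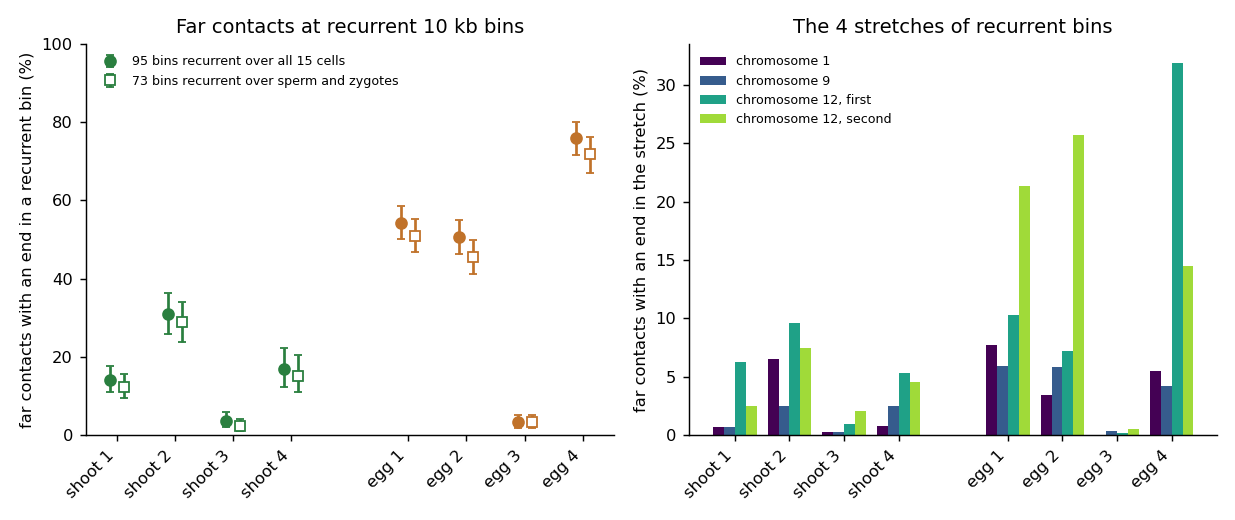
Left, the share of each cell's far contacts with an end in a recurrent 10 kb bin, for the 95 bins recurrent over all 15 cells (filled circles) and the 73 recurrent over sperm and zygotes (open squares), with exact 95% intervals. Right, bars give the share with an end in each of 4 stretches of such bins. Eggs 1, 2 and 4 stand above the 4 shoot cells on the left, and egg 3 is at 3.23%.

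The recurrent bins clustered on chromosome 12, which held 30 of the 95, followed by chromosome 1 with 16 and chromosome 9 with 9. Grouping those at most 100 kb apart, with at least 3 bins to a group, left 4 stretches. The longest, on chromosome 12 from 20470001 to 20670000, was an end of 2.46%, 7.43%, 2.09% and 4.53% of far contacts in shoot cells 1 to 4. In eggs 1 to 4 it was an end of 21.4%, 25.8%, 0.538% and 14.5%. Shoot cell 2 was the highest shoot cell, and it still lay below eggs 1, 2 and 4.

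A second stretch on chromosome 12, from 13340001 to 13420000, held an end of 6.25%, 9.60%, 0.928% and 5.35% of far contacts in shoot cells, against 10.3%, 7.20%, 0.179% and 31.9% in eggs. Here the groups overlapped, and egg 4 alone stood far out. The stretch on chromosome 9 (4670001 to 4730000) held 0.670%, 2.48%, 0.232% and 2.47% in shoot cells, against 5.89%, 5.87%, 0.358% and 4.24% in eggs. That on chromosome 1 (33510001 to 33590000) held 0.670%, 6.50%, 0.232% and 0.823% in shoot cells and 7.73%, 3.41%, 0% (0 of 558, upper limit 0.659%) and 5.49% in eggs. At the last, shoot cell 2 lay above eggs 2 and 4 and below egg 1. Far cis contacts that joined the 2 stretches of chromosome 12 to each other numbered 2, 4, 1 and 3 in shoot cells and 8, 4, 0 and 12 in eggs.

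The excess at these bins was not limited to far contacts. Among contacts under 20 kb, 1.79%, 3.84%, 0.709% and 5.42% had an end in a recurrent bin in shoot cells, against 13.4%, 10.7%, 0.697% and 21.7% in eggs. The same 3 eggs were high and egg 3 was again the lowest. Trans contacts that joined 2 recurrent bins on different chromosomes numbered 29, 53, 3 and 14 in shoot cells, where random pairing of each cell's own trans ends would give 4.27, 15.4, 0.110 and 2.74. In eggs they numbered 108, 77, 4 and 135, where it would give 57.3, 43.2, 0.0867 and 102. Observed over expected was thus 6.80, 3.45, 27.2 and 5.10 in shoot cells and 1.89, 1.78, 46.1 and 1.32 in eggs. All 8 cells exceeded their expectation, and the ratios of shoot cell 3 and egg 3 rested on 3 and 4 contacts. Choosing bins partly on these cells favours such an excess. At the 73 bins chosen without these cells the ratios were 7.25, 3.53, 40.7 and 5.06 in shoot cells. In eggs they were 1.94, 1.79, 31.9 and 1.35, and shoot cell 3 and egg 3 had 2 such contacts each. The ratio has less room to rise where many ends lie in recurrent bins, as in eggs 1, 2 and 4. Whether these bins share sequence with DNA elsewhere in the cell was not tested, since no genome of the files' build was used here.

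Bins shared within a group were counted on the same far contacts and overlap with the recurrent bins, so they are no separate support. Of 2237 bins of 10 kb with a far contact in any of the 8 cells, 20 (0.894%) had one in at least 3 shoot cells and 66 (2.95%) in at least 3 eggs. Of the 66, 28 lay on chromosome 12 and 55 had no far contact in egg 3. Only 16 bins met both rules, which is 16 of the 20 and 16 of the 66. Eggs had more far contacts than shoot cells on average, and these counts were not matched for depth. Among eggs, egg 3 had the most far contacts, 558, and egg 4 the fewest, 401. What part depth had in the counts was not tested. Outside the recurrent bins, 2 cells shared a median of 4.5 bins among shoot cells, 7 among eggs and 4 between groups. The bins named next were picked for their difference in number of cells, so their counts are descriptive. The bin with the most far contact ends among those in 3 more eggs than shoot cells began at 20660001 on chromosome 12, with 0, 3, 0 and 0 ends in shoot cells 1 to 4 and 14, 8, 1 and 7 in eggs 1 to 4. Next came a bin beginning at 6170001 on chromosome 2, with none in the shoot cells and 2, 0, 13 and 3 in eggs. The others of this kind with the most ends began at 4690001 on chromosome 9, 10850001 on chromosome 11, 2390001 on chromosome 2 and 20070001 on chromosome 10. A bin beginning at 13050001 on chromosome 12 had 8 ends, as many as the bins beginning at 2390001 and 20070001. In the opposite direction, the bin beginning at 20650001 on chromosome 12 had 1, 2, 6 and 3 ends in shoot cells and 8, 0, 0 and 0 in eggs. It adjoins the first bin named, so neighbouring bins of 1 stretch went opposite ways.

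Contacts between chromosomes took a smaller share in shoot cells on average, but the cells overlapped. The trans share of all contacts was 10.3%, 17.8%, 11.9% and 22.6% in shoot cells 1 to 4, against 22.1%, 34.0%, 10.1% and 23.0% in eggs 1 to 4. Eggs 1 and 4 were level with shoot cell 4, and egg 3 was level with shoot cell 1. Within shoot cell 4 the trans share was 24.4% of the 651 contacts from lines with equal numbers. It was 14.7% of the 177 contacts from its other lines, within the range of shoot cells 1 to 3. The means were 15.6% ± 5.65 in shoot cells, 13.3% ± 3.97 without cell 4, and 22.3% ± 9.77 in eggs (SD). The difference of -6.65 percentage points was smaller than the SD between cells of 7.98, and it was -2.75 points without egg 2 and -10.7 points without egg 3. Leaving out far contacts at the 95 recurrent bins gave 8.91%, 13.003%, 11.5% and 19.5% in shoot cells, against 12.1%, 20.2%, 9.92% and 6.41% in eggs. The means were then 13.2% ± 4.51 and 12.2% ± 5.87, and the sign of the difference had turned, to 1.06 percentage points. With the 73 bins chosen without these cells it was 0.335 points. These figures keep short contacts at the same bins in the total, and since the bins were chosen for far contacts, leaving them out lowers the trans share by construction. With short contacts at the 95 bins left out as well, the shares were 9.06%, 13.4%, 11.6% and 20.3% in shoot cells and 13.7%, 22.0%, 9.98% and 8.00% in eggs, a difference of means of 0.183 points. Without the fragments that had over 4 partners the difference was -0.452 points.

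The groups also overlapped when read pairs were matched. At 2236 read pairs each, the number in shoot cell 4, the trans share was 8.64%, 18.2%, 7.26% and 22.6% in shoot cells and 17.2%, 31.6%, 6.69% and 23.5% in eggs. The contacts behind these shares still differed, with means of 1217, 873, 1170 and 815 in shoot cells and 1013, 848, 1516 and 840 in eggs. Among far contacts alone, where the many contacts of neighbouring fragments do not count, the trans share was 83.3%, 76.8%, 85.8% and 75.7% in shoot cells and 82.7%, 84.7%, 82.8% and 79.3% in eggs. These values overlapped, with a difference of means of -1.96 percentage points against an SD between cells of 3.82. Contacts under 1 kb made up 62.7% ± 2.90 of contacts in shoot cells and 55.1% ± 6.07 in eggs (SD), and egg 3, at 62.0%, lay within the range of shoot cells.

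Within chromosomes, shoot cells were not alike. Far cis contacts numbered 75, 75, 61 and 59 in shoot cells and 94, 81, 96 and 83 in eggs. The share that spanned 2 Mb or more was 40.0%, 40.0%, 70.5% and 67.8% in shoot cells, against 61.7%, 46.9%, 70.8% and 60.2% in eggs. Shoot cells 1 and 2 lay below the 4 eggs, while shoot cell 3 matched egg 3, the highest egg, and shoot cell 4 lay above the other three eggs. Within shoot cell 4 the share was 73.8% of 42 far cis contacts from lines with equal numbers and 57.9% of 19 from its other lines. The means of 54.6% ± 16.9 and 59.9% ± 9.86 (SD) differed by less than the cells did. Without cell 4 the shoot mean was 50.2%, and over cells 1 and 2 it was 40.0%. The split between shoot cells 1 and 2 and shoot cells 3 and 4 follows their separate registration, and its cause was not tested. The difference of -5.35 percentage points ranged from -10.7 points without shoot cell 3 to -0.493 points without shoot cell 1 or 2.

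Shoot cells 1 and 3 differed most in the shortest and the longest class of separation. Shoot cell 1 had 42 contacts between 20 and 200 kb, 3 between 200 kb and 2 Mb, 16 between 2 and 10 Mb and 14 beyond. Shoot cell 3 had 14, 4, 12 and 31 in the same classes, so that 50.8% of its far cis contacts spanned 10 Mb or more, against 18.7% in cell 1 and 21.0% to 36.5% in the eggs. The median separation was 0.0824, 0.862, 10.2 and 5.03 Mb in shoot cells and 4.46, 1.52, 5.69 and 4.86 Mb in eggs, so the eggs lay between the extremes of the shoot cells. The exponent of contact density against separation from 100 kb to 5 Mb was -0.41, -0.71, -0.75 and -0.24 in shoot cells and -0.71, -0.99, -0.26 and -0.76 in eggs. It rested on 9 to 29 contacts in shoot cells and 28 to 39 in eggs, with standard errors of 0.15 to 0.31, and the groups overlapped. With the recurrent bins left out the long share was 38.8%, 27.3%, 70.7% and 66.7% in shoot cells and 37.8%, 45.8%, 68.2% and 25.9% in eggs, and eggs 1 and 4 then lay below shoot cell 1.

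**Figure D2:**
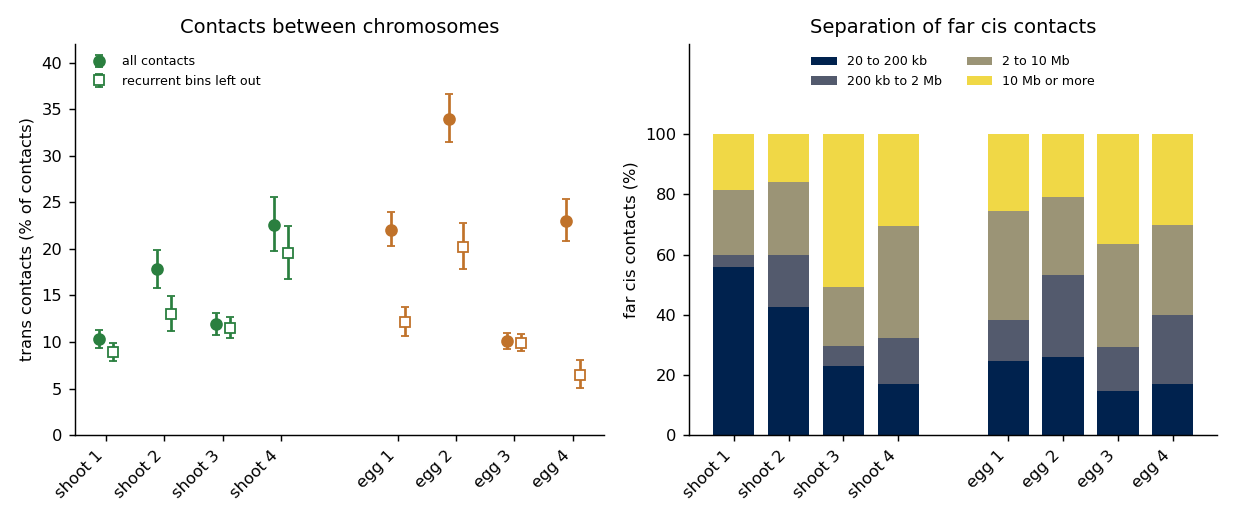
Left, trans contacts as a share of contacts in each cell, with all contacts (filled circles) and without far contacts at recurrent bins (open squares), with exact 95% intervals. Right, stacked bars divide the far cis contacts of each cell by separation. Leaving out recurrent bins lowers eggs 1, 2 and 4 and hardly moves egg 3, and shoot cells 1 and 2 hold the largest shares between 20 and 200 kb.

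Near centromeres the measures did not point one way. Windows of 1 Mb on either side of the centromeres made up 6.44% of the sequence. Trans contact ends lay there in 6.97%, 12.1%, 5.27% and 3.80% of cases in shoot cells, against 3.34%, 3.24%, 4.33% and 4.72% in eggs. Shoot cells 1, 2 and 3 lay above the 4 eggs, and shoot cell 4 lay between them. The means were 7.04% ± 3.61 in shoot cells, 8.11% without cell 4, and 3.91% ± 0.729 in eggs (SD). The difference of 3.13 percentage points was 1.44 points without shoot cell 2.

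In shoot cell 2, 33 of the 60 such ends belonged to a single fragment on chromosome 5 starting at 12094310. That fragment also had the most trans partners of any in the cell. When each fragment was counted once, the share was 7.06%, 3.79%, 4.79% and 3.59% in shoot cells and 4.64%, 5.46%, 5.35% and 5.35% in eggs. The means were then 4.81% ± 1.59 and 5.20% ± 0.377, with the sign of the difference turned. With a 2 Mb window the means were 15.5% in shoot cells and 21.1% in eggs. That window reaches distances of 1 to 2 Mb from the centromere, where shoot cells had 1.31 ± 0.484 times the trans ends of an even spread over length and eggs 2.67 ± 1.19 times. With recurrent bins left out the values at this distance were 1.22, 0.231, 0.544 and 0.771 in shoot cells and 1.10, 0.732, 2.58 and 1.24 in eggs. The means were 0.692 and 1.41, and the egg mean was 1.02 without egg 3. The difference at this distance was not limited to trans contacts. Ends of contacts under 20 kb stood there at 0.990, 1.15, 0.580 and 1.22 times an even spread in shoot cells. In eggs they stood at 1.37, 1.28, 1.54 and 2.60 times, so the groups did not overlap, with short contacts at recurrent bins kept.

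For far cis contacts the 4 shoot cells and the 4 eggs did not overlap at the 1 Mb window. The ends lay near a centromere in 4.67%, 5.33%, 11.5% and 2.54% of cases in shoot cells, against 0.532%, 2.47%, 2.08% and 1.81% in eggs. The gap was narrow, since shoot cell 4 and egg 2 differed by 3 of 118 ends against 4 of 162. The counts were 7, 8, 14 and 3 ends in shoot cells and 1, 4, 4 and 3 in eggs. In shoot cell 3 the 14 contacts with such an end lay on 3 chromosomes and all spanned 2 Mb or more. The means were 6.00% ± 3.84 and 1.72% ± 0.839 (SD), or 0.932 and 0.268 times an even spread. With recurrent bins left out they were 6.88% and 2.41%, or 1.07 and 0.374 times an even spread. The groups then overlapped, since shoot cell 4 stood at 2.94% and egg 2 at 4.17%. The difference of 4.28 percentage points was 2.46 points without shoot cell 3. With a 2 Mb window the means were 16.1% in shoot cells and 17.1% in eggs. Short contacts, those under 20 kb, were near centromeres in 3.93%, 3.37%, 3.84% and 4.02% of cases in shoot cells and 2.98%, 3.18%, 4.32% and 3.57% in eggs and the groups overlapped.

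**Figure D3:**
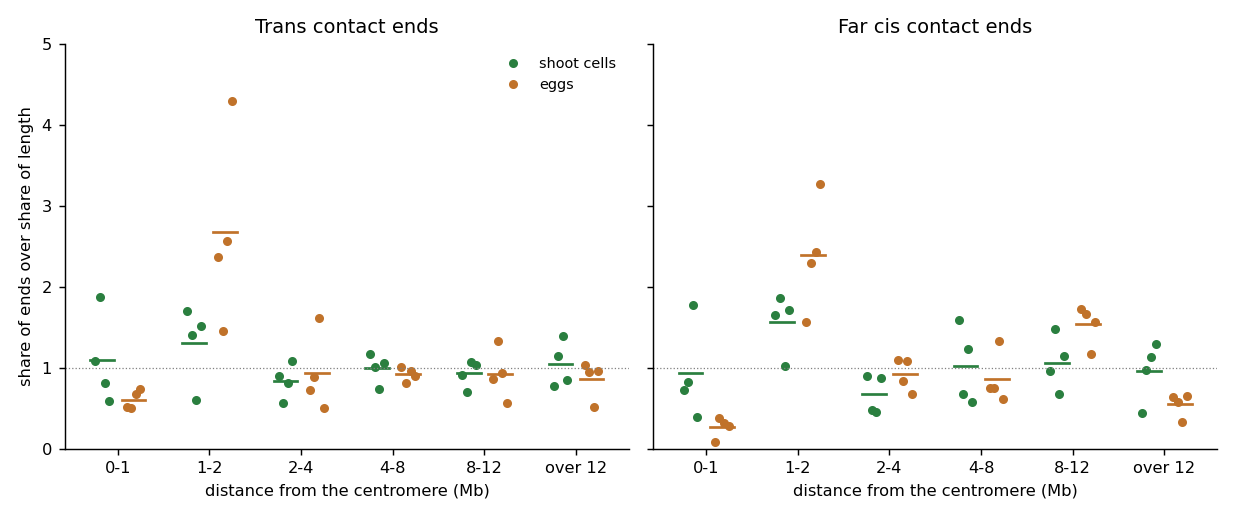
The share of contact ends in each class of distance from the centromere, divided by the share of sequence length in that class, for trans contacts (left) and far cis contacts (right); points are cells, lines are means and the dotted line is an even spread. Shoot cells lie higher than eggs at 0 to 1 Mb and eggs lie higher at 1 to 2 Mb on average.

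At chromosome ends, shoot cells had more trans contact ends than eggs on average, but no more than an even spread. Within 1 Mb of an end lay 4.02%, 6.05%, 9.05% and 6.52% of trans ends in shoot cells, against 3.67%, 5.82%, 3.90% and 2.36% in eggs. Shoot cells 2, 3 and 4 lay above the 4 eggs, and shoot cell 1 lay below egg 2. The means were 6.41% ± 2.07 and 3.94% ± 1.43 (SD), and 6.37% in shoot cells without cell 4. These windows made up 6.44% of the sequence, so the shoot mean was close to an even spread and the egg mean below it. The difference of 2.47 percentage points was 1.59 points without shoot cell 3, 1.10 points without shoot cells 3 and 4, 1.46 points without isolated contacts and 1.26 points when each fragment was counted once. With a 2 Mb window they were 12.2% and 6.49%. Without the fragments that had over 4 partners the sign turned, with means of 4.61% and 5.19%. Far cis ends lay near chromosome ends in 4.00%, 6.00%, 8.20% and 14.4% of cases in shoot cells and 2.13%, 6.17%, 3.13% and 1.81% in eggs, with means of 8.15% ± 4.51 and 3.31% ± 1.99 (SD). For short contacts the order was the other way, at 6.04% ± 1.15 in shoot cells and 7.32% ± 1.98 in eggs.

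At the 1 Mb window, contacts that join such places on different chromosomes were too few to separate the groups. Centromere to centromere contacts numbered 1, 7, 2 and 0 in shoot cells, where random pairing would give 1.75, 1.89, 0.950 and 0.253, and 1, 2, 0 and 3 in eggs, where it would give 0.447, 0.445, 0.743 and 0.647. Summed over cells, observed over expected was 2.07 (0.991 to 3.80) in shoot cells and 2.63 (0.965 to 5.72) in eggs. The shoot value was 1.02 without shoot cell 2 and 2.18 without shoot cell 4, and the egg value was 3.90 without egg 3. In shoot cell 2, 4 of the 7 contacts shared 1 fragment on chromosome 5, which starts at 12095339, close to the fragment described above.

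End to end contacts numbered 6, 1, 4 and 2 in shoot cells and 0, 3, 0 and 2 in eggs. Observed over expected was 2.88 (1.53 to 4.92) in shoot cells and 1.86 (0.603 to 4.33) in eggs. The 6 contacts of shoot cell 1 all joined the same 2 chromosomes, and 4 of them shared 1 fragment on chromosome 8 starting at 28039294. Without shoot cell 1 the excess over the eggs was -0.09 in place of 1.02. Centromere to end contacts, which would join the opposite poles of a Rabl nucleus, stood at 0.576 (0.212 to 1.25) in shoot cells and 0.942 (0.306 to 2.20) in eggs. These intervals overlap in each case.

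A further measure of polarity is whether both ends of a trans contact lie at like distances along their arms, given as a rank correlation over the contacts of a cell. It was -0.04, 0.24, 0.06 and 0.11 in shoot cells and -0.06, 0.02, 0.01 and -0.04 in eggs. Shoot cell 2 was the highest and shoot cell 1 lay among the eggs. With recurrent bins left out the eggs stood at 0.14, 0.11, 0.01 and 0.14, and the means were 0.10 in both groups. The contacts of a cell share fragments and a library, so these values are descriptive.

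Across whole chromosomes, no chromosome had a share of contact ends that kept all shoot cells apart from all eggs. Without shoot cell 4, chromosome 4 did, at 1.13, 0.958 and 0.975 times its share of length in shoot cells 1 to 3 (0.560 in cell 4) against 0.583, 0.671, 0.717 and 0.665 times in eggs. Chromosome 12 overlapped in 1 cell of each group. Relative to its share of length it held 1.06, 1.32, 0.692 and 0.723 times the contact ends in shoot cells, against 2.41, 1.86, 1.15 and 2.97 times in eggs. Shoot cell 2 lay above egg 3, and all others were in order. For trans ends alone the values were 1.62, 1.75, 0.842 and 1.07 in shoot cells and 2.82, 2.47, 1.44 and 3.64 in eggs. With recurrent bins left out they were 1.19, 0.403, 0.683 and 0.493 in shoot cells and 1.41, 0.256, 1.41 and 0.393 in eggs, and the eggs no longer stood together. Chromosomes 2 and 7 held 3.11 and 2.48 times their share of length in shoot cell 4, against at most 1.34 and 1.14 in the other 7 cells.

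The 66 chromosome pairs were compared after allowing for how often each chromosome took part in trans contacts in each cell. For 1 pair (1.52%) every shoot cell lay above every egg, and for 2 pairs (3.03%) every shoot cell lay below every egg. The pair above was chromosomes 1 and 11, with observed over expected of 0.899, 1.01, 0.951 and 7.41 in shoot cells and 0.764, 0.614, 0.810 and 0.593 in eggs. Apart from shoot cell 4, where 4 contacts stood against 0.540 expected, the shoot cells were close to 1. Chromosomes 4 and 6 met in 2, 0, 1 and 0 contacts in shoot cells (0.230 times the expected sum, 0.0473 to 0.671) and in 6, 3, 13 and 2 contacts in eggs (0.842 times, 0.539 to 1.25). Chromosomes 5 and 8 met in 0, 6, 0 and 0 contacts in shoot cells (0.438 times, 0.161 to 0.954) and in 5, 3, 3 and 1 in eggs (1.19 times, 0.614 to 2.08). For both pairs the intervals of the sums overlap. With recurrent bins left out, 1 pair of the 66 kept the groups apart, with shoot cells below eggs. Counts of pairs this small can arise without any difference between the groups, which was not tested.

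Coverage along the chromosomes was broader in shoot cells on average. With each cell thinned to 815 contacts, the number in shoot cell 4, contact ends fell in 583, 516, 473 and 453 bins of 100 kb in shoot cells, against 424, 412, 575 and 355 in eggs. Egg 3 was nearly level with shoot cell 1, the highest, and the other three eggs lay below all shoot cells. The means were 506 ± 57.5 in shoot cells, 524 without cell 4, and 442 ± 93.8 in eggs (SD), a difference smaller than the SD between cells. The difference of 64.6 bins was 109 bins without egg 3, 35.9 bins without egg 4 and 39.1 bins without shoot cell 1. With far contacts at recurrent bins left out and 774 contacts a cell, the means were 484 ± 55.8 and 423 ± 94.6. The 10 fullest bins of 1 Mb held 10.3%, 15.4%, 12.4% and 18.0% of contact ends in shoot cells and 24.8%, 24.8%, 10.3% and 37.2% in eggs. In eggs 1, 2 and 4 the fullest was the bin starting at 20000001 on chromosome 12, with 8.39%, 8.83% and 9.48% of ends, against 0.240% in egg 3 and 1.02%, 2.13%, 0.635% and 1.66% in shoot cells.

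Of the 379 bins of 1 Mb, 5 (1.32%) had every shoot cell above every egg and 5 (1.32%) every shoot cell below every egg. Shares this small can arise without any difference between the groups, and this was not tested, so the bins named are descriptive. The difference of means was largest in the shoot cells' favour at the bin starting at 7000001 on chromosome 2, with 0.235%, 0.310%, 0.471% and 1.35% of contact ends in shoot cells and 0.0847%, 0%, 0.161% and 0% in eggs. The bin starting at 6000001 on chromosome 7 followed, with 0.290%, 0.266%, 0.894% and 0.675% in shoot cells and 0%, 0.0834%, 0.209% and 0.155% in eggs. Shoot cell 4, whose contacts crowd on these chromosomes, was among the highest at both. Bins starting at 31000001 on chromosome 2 and at position 1 of chromosome 4 came next, with means of 0.414% and 0.328% in shoot cells and 0.0684% and 0.0374% in eggs.

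In the opposite direction, the first bin of chromosome 10 held 0.110%, 0.269%, 0% and 0% of contact ends in shoot cells and 0.329%, 1.33%, 0.361% and 0.541% in eggs. Bins starting at 4000001 on chromosome 8, 19000001 on chromosome 3 and 21000001 on chromosome 12 had means of 0.0517%, 0.0446% and 0.0526% in shoot cells and 0.461%, 0.289% and 0.237% in eggs. Each of these bins held at most 55 contact ends in any cell. Across the 379 bins the rank correlation of contact ends between cells had a median of 0.07 over the 6 pairs of shoot cells, 0.12 over the 6 pairs of eggs and 0.09 over the 16 pairs between groups. The highest value was 0.20 between shoot cells, 0.21 between eggs and 0.18 between groups, so cells were about as unlike within a group as across groups.

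**Figure D4:**
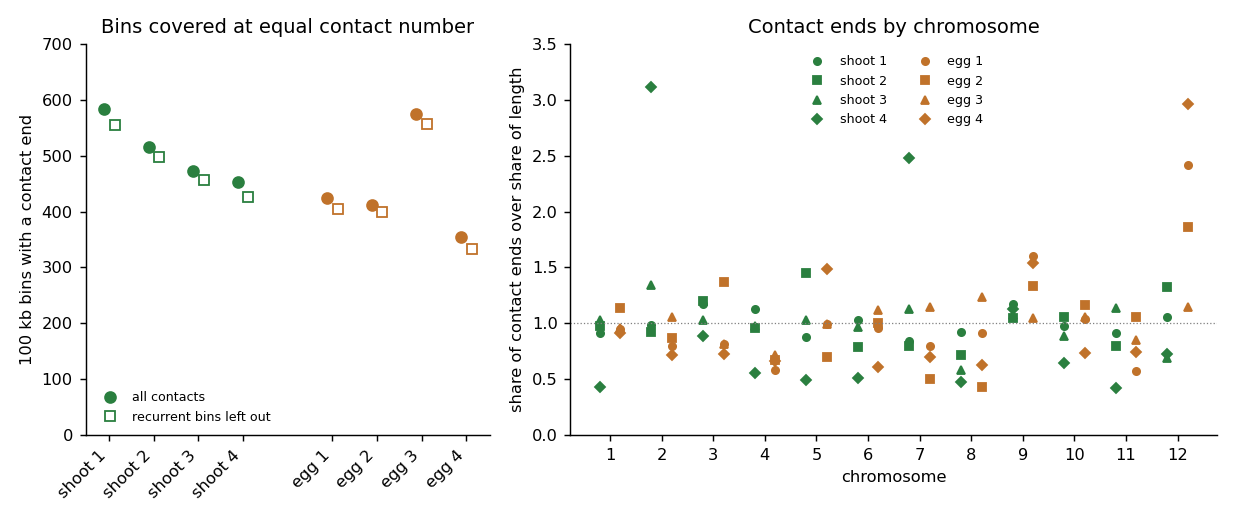
Left, 100 kb bins with a contact end when each cell is thinned to the same number of contacts, 815 for all contacts (filled circles) and 774 without far contacts at recurrent bins (open squares). Right, each chromosome's share of contact ends over its share of length, with 1 symbol per cell. Eggs 1, 2 and 4 stand out on chromosome 12, and shoot cell 4 on chromosomes 2 and 7.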

How the data were processed

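The authors deposited 1 list of read pairs per cell in the NCC contact format, with chromosome, position, restriction fragment and strand of both ends, per the files themselves. The values are positions, with no normalisation. The sources used here name no aligner, contact caller or genome build. Per the labels' protocols, single cells were fixed, cut with DpnII, ligated and amplified as a whole genome, so read pairs are not independent molecules.

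Read pairs of 1 fragment pair were counted as 1 contact. Long contacts were cis contacts of 2 Mb or more. Centromeres were set by hand from known positions of the rice reference chromosomes, whose match to these coordinates was not tested. Chromosome length was taken as the end of the last fragment met in the 15 cells. Expected trans counts came from random pairing of each cell's own trans ends, and for the 66 chromosome pairs from totals kept for each chromosome. Thinning used 100 draws. The decay exponent was fitted over 6 classes of distance. Measures were tested on simulated contacts. Python 3.11.15, numpy 2.4.6, pandas 2.3.3 and scipy 1.17.1 were used.

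The cells were taken by label, but their comparison, the measures and the lists were chosen with earlier results of these data known. Chromosome pairs and 1 Mb bins are named where the groups do not overlap, at most 4 each way by difference of means, and 10 kb bins where at least 3 cells of 1 group have far contacts, at most 6 each way by difference in cells. Ties among these were ordered by contact ends, and then by chromosome and position. A chain annotation was not used here.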

Additional observations from a re-analysis of the deposited data

Results flagged for a closer look

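Among 64 sets of 4 cells examined, 5 had 1 cell far from the other three, where chance alone gives about 1 in 20. The share of read pairs with equal line and pair numbers was 73.7% in shoot cell 4, and in eggs the single such read pair of egg 1 made 0.0121%. Observed over expected for trans contacts joining 2 recurrent bins was 27.2 in shoot cell 3 and 46.1 in egg 3, both from expectations under 1 contact. Chromosome 3 held 1.37 times its share of length in egg 2.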

How the results depend on the processing

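Differences are shoot cells minus eggs. In each case the cause of a change was not tested. Bins chosen on sperm and zygotes, the omission of all contacts at recurrent bins, the count of fragments once, the omission of contacts under 1 kb and the near-centromere share of far cis ends were added after seeing the data. The near-centromere share of far cis ends kept its sign at every setting except the 2 Mb window (-1.07 points), though the groups overlapped without recurrent bins, and covered 100 kb bins kept theirs at every setting tried. Leaving out recurrent bins turned the trans share to 1.06 points, the share of far cis contacts of 2 Mb or more (long share) to 6.41 points, the median separation to 1.77 Mb, arm alignment to -0.0038 and the centromere to centromere ratio to 0.074, with 1 chromosome pair apart. Chosen on sperm and zygotes, such bins gave 0.335 points for the trans share and 4.78 points for the long share. With short contacts at recurrent bins also left out the trans share was 0.183 points. Without fragments of over 4 partners the trans share of far contacts was 3.08 points, the long share 3.15 points, the median separation 0.402 Mb, trans ends near centromeres -0.941 points, trans ends near chromosome ends -0.583 points and the centromere to end ratio 0.043, with 0 pairs apart. The 2 Mb window gave -5.65 points near centromeres, 5.69 points near ends, 0.50 for centromere to centromere and 0.0041 for centromere to end. An expectation from sequence length gave 1.19 and 0.26 for these ratios. Counting each fragment once gave -0.394 points near centromeres. Far cis contacts from 50 kb gave 5.99 points for the long share and 0.543 Mb for the median, and read pairs thinned to the shallowest cell gave 1.61 points and 1.19 Mb. Without isolated contacts the slope was -0.093 and the end to end ratio 6.65. Merged 10 kb bins left 1 chromosome pair apart, as did the product of shares, and bins of double size left 6 bins apart. Without shoot cells 3 and 4 the long share was -19.9 points and the median -3.66 Mb, with 45 bins and 13 pairs apart, where fewer cells make separation easier.

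Leaving out 1 cell at a time left 12 to 31 bins and 3 to 10 pairs apart. The median ranged from -2.14 Mb (without shoot cell 3) to 1.23 Mb (without shoot cell 1). The centromere to centromere ratio ranged from -1.83 (without egg 3) to 0.29 (without shoot cell 1), centromere to end from -0.82 (without egg 2) to 0.094 (without egg 1), and end to end from -0.094 (without shoot cell 1) to 2.93 (without shoot cell 3). No paired analysis was possible because the cells carry no pairing, and no comparison of shoot cells with eggs comes from a test. Few far cis contacts and few centromere or end pairs limit these measures, the centromeres rest on another source than the files, and 1 cell could decide a sign.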
